A study of Mus musculus with 12 samples.

Results

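The comparison described here set left ventricles of mice killed 4 weeks after aortic banding against left ventricles of mice killed 4 weeks after a sham operation. The 6 arrays were taken by their stress label, 3 arrays labelled AB and 3 labelled sAB, out of 12 arrays in 4 groups. A gene entered the comparison when a probe set carrying 1 gene symbol read above 4 on the log2 scale on at least 3 of the 12 arrays, and the probe set with the highest mean stood for the gene. This rule kept 10435 of the 18193 genes with such a probe set on the array, and it used no difference between groups.

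All mice were male C57BL/6 animals aged 7 weeks at the first operation. The AB mice carried an aortic band and were killed with the band in place. The sAB mice had the sham operation and the same interval. The remaining groups were DB3, banded for 4 weeks and killed 3 days after the band was removed, and sDB3, with the sham operation, the matching second procedure and the same 3 days. Each group held 3 mice with 1 array each, and the sDB3 arrays served as a second set of unbanded hearts, 3 days older and operated on again. The left ventricle was parted from the right ventricle and the atria before RNA was extracted, so each value is an average over every cell type of the chamber wall. In such samples fewer cells of a type and less RNA per cell cannot be told apart.

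A band around the aorta raises the pressure against which the left ventricle ejects. Cardiomyocytes respond by growing in width, and the adult ventricle re-expresses genes of its fetal programme, among them natriuretic peptides and the slow myosin heavy chain. Fibroblasts deposit matrix under the influence of TGF-beta and mechanical load, and the overloaded heart is known for a lower use of fatty acids and a higher use of glucose.

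The values were log2 probe-set signals with a floor of 2.23, and between 42.4% and 43.1% of probe sets read above 4 on an array. Arrays correlated over all genes at 0.994 to 0.995 within AB, 0.990 to 0.993 within sAB and 0.978 to 0.986 between them. The hybridisation control BioC read 9.82 to 10.15 on the 3 sAB arrays, and 7.99 ± 0.22 (SD, n = 3) in AB, 7.93 ± 0.22 in sDB3 and 7.93 ± 0.07 in DB3. The spiked control Cre read 14.11 to 14.28 in sAB, 14.39 to 14.68 in AB, 14.39 to 14.63 in sDB3 and 14.45 to 14.55 in DB3. The controls BioB and BioD overlapped between sAB and AB. The sAB arrays thus stood apart on BioC and Cre, in opposite directions. Batch and group cannot be told apart there, and values against sDB3 are given beside those against sAB. The 3′ minus 5′ difference of the Actb control probes was 1.02 to 1.13 in AB, 1.20 to 1.26 in sAB and 1.20 to 1.25 in sDB3. Summed signal of 11 ventricular cardiomyocyte markers, on a log2 scale, was 18.898 to 18.971 in AB, 18.977 to 19 in sAB and 19.025 to 19.057 in sDB3. Every AB array thus stood slightly below every array of both sham groups, and the part of this in any result was not tested. None of the 11 was at or below 4, so cardiomyocyte signal was present in each group. Summed signal of 9 atrial markers was 11.1 to 13.2 in AB, 10.6 to 11.4 in sAB, 11.9 to 14.1 in sDB3 and 9.94 to 14.0 in DB3, and its part in any result was not tested.

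After 4 weeks of banding, single genes such as Myh7, Cilp and Nppa differed more than 5-fold between AB and sAB, while most passing differences were small. In limma's moderated test with Benjamini-Hochberg adjustment over all 10435 genes, 1256 genes were higher in AB, 12% of those tested, and 802 were lower, 7.69%, which together are 19.7%. The median size of a passing difference was 0.50 on the log2 scale for higher genes and 0.40 for lower genes. At least 2-fold differences were found for 157 higher and 41 lower genes, and at least 4-fold differences for 13 and 3. The median over all genes tested was 0.01, and every list median against sAB is read beside it. Every list count against sAB is read beside 12% and 7.69%. Within the AB and sAB arrays the ranges did not overlap for 1247 of the higher and 797 of the lower genes, against 23.1% of all genes tested with AB above and 19% with AB below.

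Against sDB3, which shares the AB arrays with the first comparison, 1809 genes were higher in AB, 17.3% of those tested, and 489 were lower, 4.69%. The median over all genes tested was 0.11 in that comparison. Its list medians are therefore read beside 0.11, and its list counts beside 17.3% and 4.69%. The share of calls that were higher was 61% against sAB and 78.7% against sDB3. It was 51.1% and 55.8% after quantile normalization and 47% and 39.9% after each array was centred on its median, so the balance of the 2 directions moved with the scaling. Leaving out AB replicate 2 gave 833 higher and 396 lower genes against sAB, leaving out AB replicate 3 gave 766 and 373, and without sAB replicate 1 there were 521 lower genes. Of the 2058 calls, 987 were kept in all 6 fits that left out 1 array, 682 of them higher and 305 lower.

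The natriuretic peptide system rose at its ligands and at its clearance receptor. Atrial natriuretic peptide and B-type natriuretic peptide are hormones that the loaded heart secretes to lower blood volume and pressure. Nppa, which encodes the atrial peptide, read 14.90, 15.19 and 15.21 in the AB arrays and 12.64, 12.77 and 12.71 in the sAB arrays. Every AB array stood above every sAB array, and the difference was 2.39 ± 0.16 on the log2 scale (SE, n = 3 and 3; adjusted p = 1.38e-05), or 5.26-fold. Against sDB3 it was 2.07. Nppb, which encodes the B-type peptide, read 13.90, 14.18 and 14.13 in AB and 13.30, 13.23 and 13.21 in sAB. The groups again did not overlap, and Nppb rose by 0.82 ± 0.19 (adjusted p = 0.0126), with 1.43 against sDB3. Its call ended without AB replicate 2, where the adjusted p was 0.0506.

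Npr3, the receptor that clears natriuretic peptides from the circulation, read 7.88, 8.02 and 8.01 in AB and 7.21, 7.22 and 7.09 in sAB. It rose by 0.80 ± 0.09 (adjusted p = 0.000278), with the same 0.80 against sDB3. Furin, a protease that cleaves the B-type precursor among many substrates, rose by 1.04 (adjusted p = 0.00153) against sAB and differed by 0.08 from sDB3. Corin, the cardiac protease that activates the atrial peptide, differed by -0.34 (adjusted p = 0.074), and Mme, the peptidase neprilysin that degrades it, by -0.65 (adjusted p = 0.053). Both passed after quantile normalization, at adjusted p = 0.0446 and 0.0259. In all, 5 of 9 tested members of the system were higher and none was lower, with a median of 0.37. Without AB replicate 2 the count was 3, and against sDB3 it was 4. The atrial markers Sln, Myl7, Myl4 and Mybphl, known from atrial muscle, did not pass against sAB at 3.15, 2.47, 1.97 and 1.17, with adjusted p from 0.22 to 0.38.

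**Figure D1:**
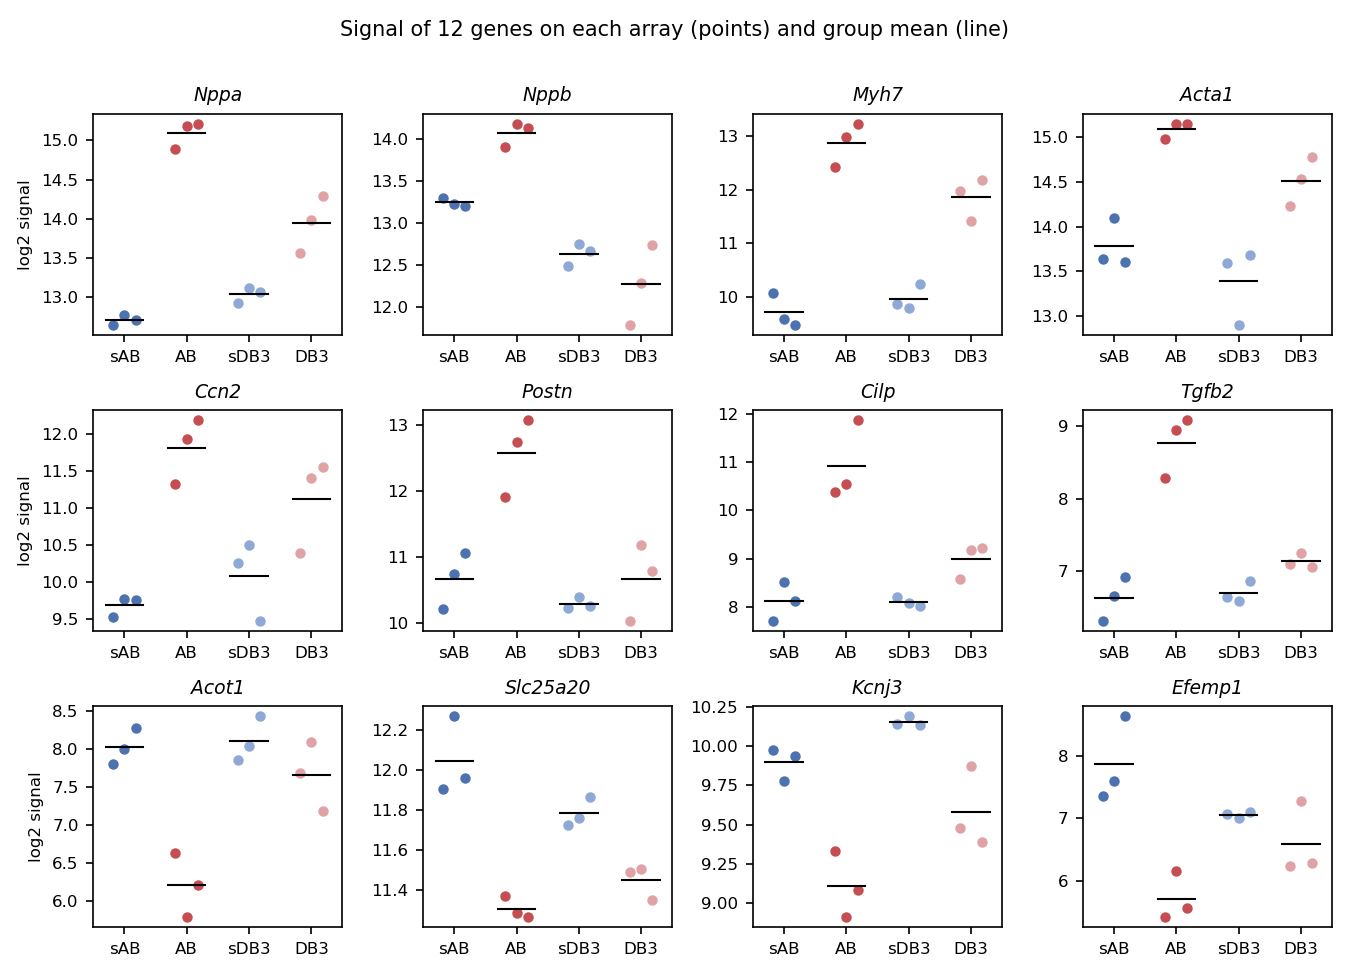
Log2 signal (vertical axis) of 12 genes on each array (points) in the groups sAB, AB, sDB3 and DB3, with the group mean as a line. Nppa, Myh7, Ccn2, Postn, Cilp and Tgfb2 stood higher on all 3 AB arrays than on any sAB array, and Acot1, Slc25a20, Kcnj3 and Efemp1 stood lower.

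Promoters of the banding-induced cardiomyocyte genes are printed because several hold the M-CAT motif, the element that TEAD factors bind in muscle genes. The M-CAT motif was searched as CATTCC on both strands within 250 bases before the transcription start that RefSeq lists, build GRCm38.p6. Each sequence runs 5′ to 3′ on the strand of its gene, in lower case, with the motif in capitals. GGAATG is the motif read on the opposite strand, and Myh7 has 2 listed starts, of which the first was used.
Nppa: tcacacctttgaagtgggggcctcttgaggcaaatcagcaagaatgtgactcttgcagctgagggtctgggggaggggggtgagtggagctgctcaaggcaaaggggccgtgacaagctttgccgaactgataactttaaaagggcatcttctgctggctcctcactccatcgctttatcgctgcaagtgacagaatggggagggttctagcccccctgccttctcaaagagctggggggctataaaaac
Nppb: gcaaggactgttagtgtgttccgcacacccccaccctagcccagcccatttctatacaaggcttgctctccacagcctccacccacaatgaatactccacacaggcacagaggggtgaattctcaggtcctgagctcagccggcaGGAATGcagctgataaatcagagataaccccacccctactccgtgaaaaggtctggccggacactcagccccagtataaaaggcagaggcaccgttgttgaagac
Myh7: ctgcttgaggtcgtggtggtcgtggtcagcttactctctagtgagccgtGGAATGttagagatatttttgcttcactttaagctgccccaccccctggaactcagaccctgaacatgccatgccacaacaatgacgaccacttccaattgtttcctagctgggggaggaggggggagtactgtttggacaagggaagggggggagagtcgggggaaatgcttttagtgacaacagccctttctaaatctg
Acta1: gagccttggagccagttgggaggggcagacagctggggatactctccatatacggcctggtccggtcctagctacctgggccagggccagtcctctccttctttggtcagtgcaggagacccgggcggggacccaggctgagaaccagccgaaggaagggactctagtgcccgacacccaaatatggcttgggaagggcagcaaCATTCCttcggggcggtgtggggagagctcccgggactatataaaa
Ankrd1: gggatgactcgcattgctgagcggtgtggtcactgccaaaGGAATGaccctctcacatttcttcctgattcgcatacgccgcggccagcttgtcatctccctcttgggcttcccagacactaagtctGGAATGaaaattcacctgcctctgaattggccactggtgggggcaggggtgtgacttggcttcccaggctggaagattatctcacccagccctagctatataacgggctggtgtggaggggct
These windows lie at chr4:148000472-148000721 on the plus strand for Nppa, chr4:147985650-147985899 on the plus strand for Nppb and chr14:54994627-54994876 on the minus strand for Myh7. Acta1 lies at chr8:123894776-123895025 and Ankrd1 at chr19:36119845-36120094, both on the minus strand.

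The motif began 105 bases before the start in Nppb, 201 in Myh7 and 46 in Acta1. Ankrd1 held it at 210 and 123 bases, and the Nppa window held none. Over all 27025 listed promoters of this length, 12.63% held the motif, and 10.5% of the 8473 promoters of tested genes did. The share was 14.2% for 1002 genes higher in AB than in sAB and 24.6%, or 30 of 122, for those higher by at least 2-fold. For genes higher by at least 2-fold against sDB3 it was 17.4%, or 23 of 132. Among 652 lower genes the share was 11.2%, and 1 of 26 genes lower by at least 2-fold held it. A SMAD element, CAGACA, was found in 12.9% of tested promoters, 10.7% of those higher by at least 2-fold against sAB and 17.4% of those higher by at least 2-fold against sDB3. An AP-1 element, TGACTCA, was found in 2.79%, 1.64% and 5.3%, and the CArG box that serum response factor binds in 1.17%, 2.46% and 0.758%. For these 3 elements the side of the share over tested promoters depended on the sham group. A GC box, GGGGCGGGG, was found in 20.7% of tested promoters, and in 13.9% and 14.4% of those higher by at least 2-fold against sAB and sDB3. The CRE, EGR, ERR and DR1 elements were also searched. Each was found in at most 2.8% of tested promoters and in a smaller share of both 2-fold sets. These shares describe letters in a window, were not tested and say nothing about binding.

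The sarcomere itself changed at a few members, while genes of the Z-disc, the structure that anchors thin filaments and senses stretch, changed broadly. Myh7, the slow myosin heavy chain of the fetal mouse ventricle, read 12.41, 12.97 and 13.23 in AB and 10.07, 9.58 and 9.48 in sAB. The lowest AB array stood more than 2 log2 units above the highest sAB array, and Myh7 rose by 3.16 ± 0.25 (adjusted p = 5.06e-05), 8.95-fold, with 2.91 against sDB3. Myh6, the fast isoform of the adult mouse ventricle, differed by -0.14 (adjusted p = 0.11). Mybpc2, a myosin-binding protein known from fast skeletal muscle, read 9.44, 9.37 and 9.24 in AB and 7.78, 7.65 and 8.08 in sAB, a rise of 1.51 ± 0.17 (adjusted p = 0.000378), with 1.85 against sDB3. Its cardiac paralogue Mybpc3 rose by 0.36 (adjusted p = 0.0067), against 0.13 relative to sDB3. Of 16 thick-filament genes tested, 5 were higher and none lower, with a median of 0.23. The count was 3 without any one of AB replicates 2 and 3 and sAB replicates 2 and 3, 3 after centring, and 3 higher with 1 lower against sDB3.

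Acta1, the skeletal alpha-actin of the fetal heart, read 14.98, 15.15 and 15.15 in AB and 13.64, 14.10 and 13.61 in sAB. It rose by 1.31 ± 0.21 (adjusted p = 0.00228), 2.48-fold, with 1.70 against sDB3, and the arrays did not overlap. Cardiac alpha-actin, Actc1, differed by 0.01 (adjusted p = 0.95). Lmod2, which elongates thin filaments, rose by 0.53 (adjusted p = 0.0045), but differed by 0.29 from sDB3 (adjusted p = 0.0602). Neb, the thin-filament ruler nebulin of skeletal muscle, fell by 1.34 (adjusted p = 0.0069), but it read 3.28, 3.00 and 3.02 in AB, below 4, so that low signal bounds the size of its fall, and it differed by -1.37 from sDB3. The 16 tested thin-filament genes gave 2 higher and 3 lower with a median of -0.01, only 1 lower without AB replicate 2, AB replicate 3 or sAB replicate 1, and 2 higher and 4 lower against sDB3.

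At the Z-disc, 16 of 30 tested genes were higher and none was lower, with a median of 0.32. The count ranged from 13 to 17 when 1 array was left out, and against sDB3 it was 12 higher and 1 lower. Ankrd1 and Ankrd23 are ankyrin-repeat proteins that bind titin and move to the nucleus under stretch. Ankrd1 read 14.89, 15.15 and 15.14 in AB and 14.29, 14.10 and 14.07 in sAB, and it rose by 0.91 ± 0.13 (adjusted p = 0.00127). Ankrd23 read 12.84, 13.02 and 12.97 in AB and 11.57, 11.72 and 11.65 in sAB, a rise of 1.30 ± 0.16 (adjusted p = 0.000464). Both sets of arrays were far apart, and the differences against sDB3 were larger, at 1.33 and 1.51. Nrap, a scaffold of myofibril assembly at the intercalated disc, read 12.97, 12.99 and 13.08 in AB and 12.25, 12.21 and 12.24 in sAB, the tightest of these genes, and rose by 0.78 ± 0.06 (adjusted p = 6.12e-05), with 0.73 against sDB3.

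The actin-binding proteins Synpo2l and Flnc rose by 1.24 and 0.84, Myot by 0.77, the intermediate filament Des by 0.76 and the actin-binding repeat protein Xirp1 by 0.66. Against sDB3 the same genes differed by 1.53, 0.47, 0.91, 0.30 and 0.18. Csrp3, the muscle LIM protein, and Tcap, the titin cap, did not pass, at 0.17 (adjusted p = 0.13) and 0.16 (adjusted p = 0.57). Of the cytoplasmic actin cytoskeleton 10 of 27 genes were higher with a median of 0.30, but only 4 without AB replicate 2, AB replicate 3 or sAB replicate 1, and 8 against sDB3. Enah, which extends actin filaments, rose by 1.01 ± 0.07 (adjusted p = 1.99e-05) and by 0.81 against sDB3. Synm, an intermediate filament protein that ties desmin to the membrane skeleton, rose by 1.28 (adjusted p = 0.00383), and by 0.999 against sDB3. Lmna, which encodes the nuclear lamins A and C, rose by 0.80 (adjusted p = 0.000811), but differed by 0.32 from sDB3 (adjusted p = 0.0564). Of 18 tubulin and microtubule genes 2 were higher and 1 lower, and 3 and 2 against sDB3, among them Map4, a microtubule stabiliser, which rose by 0.48 (adjusted p = 0.00363), and Ttll1, a tubulin polyglutamylase subunit, which fell by 0.69 (adjusted p = 0.0075). They differed by 0.34 and -0.83 from sDB3.

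Calcium handling split between its members. Atp2a2, which pumps calcium back into the sarcoplasmic reticulum, differed by -0.03 (adjusted p = 0.74), and its inhibitor Pln by -0.06 (adjusted p = 0.5). Against sDB3 Atp2a2 was lower, at -0.22 (adjusted p = 0.0282), and Pln did not pass, at -0.14 (adjusted p = 0.0875). The release channel Ryr2 differed by -0.26 (adjusted p = 0.051) against sAB and fell by 0.31 (adjusted p = 0.024) against sDB3. Trdn, triadin, which anchors calsequestrin to the release channel, read 12.48, 12.19 and 12.07 in AB and 12.95, 12.91 and 12.85 in sAB. It fell by 0.65 ± 0.10 (adjusted p = 0.00209), with no overlap and -0.38 against sDB3. Cacna2d1, an auxiliary subunit of the L-type calcium channel, fell by 0.47 (adjusted p = 0.00622) and differed by -0.14 from sDB3. Jph2, which holds the T-tubule to the sarcoplasmic reticulum, rose by 0.41 (adjusted p = 0.00183) against sAB alone, with 0.04 against sDB3.

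Atp2b1, a plasma membrane calcium pump, read 9.46, 9.66 and 9.73 in AB and 8.24, 8.28 and 8.42 in sAB, a rise of 1.30 ± 0.10 (adjusted p = 5.06e-05). The sDB3 arrays read 9.52, 9.46 and 9.17, close to AB, and the difference from them was 0.23. Of 29 calcium-handling genes 7 were higher and 3 lower against sAB, with 4 higher without AB replicate 3, while against sDB3 1 was higher and 6 were lower. Rcan1, an inhibitor of calcineurin whose transcription calcineurin itself drives, read 11.35, 11.93 and 11.58 in AB and 10.14, 10.63 and 10.14 in sAB. Rcan1 rose by 1.31 ± 0.22 (adjusted p = 0.00261), 2.49-fold, and by 2.07 against sDB3. Of 24 genes of calcineurin, NFAT and MEF2 signalling, 3 were higher and 2 lower, and 5 and 1 against sDB3. Camta1, a calmodulin-binding transcription activator, rose by 0.67 (adjusted p = 0.00202) and Mef2a fell by 0.37 (adjusted p = 0.00179), with 0.53 and -0.26 against sDB3. Mef2c went the other way from Mef2a and rose by 0.88 (adjusted p = 0.00034), but differed by 0.16 from sDB3 (adjusted p = 0.267).

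Potassium channel subunits fell at 5 of 20 tested members and rose at 1, with a median of -0.14, and 9 fell and 1 rose against sDB3. The rise was Kcnj11, a pore subunit of ATP-sensitive channels, at 0.37. Its call ended after quantile normalization (adjusted p = 0.0688), after centring (adjusted p = 0.0826) and without any single array other than sAB replicate 1 (adjusted p up to 0.136), and it fell by 0.49 against sDB3. Kcnj3 and Kcnj5 form the acetylcholine-gated potassium channel, which is strongest in atrial muscle. Kcnj3 read 9.33, 8.91 and 9.09 in AB and 9.97, 9.78 and 9.94 in sAB, and fell by 0.79 ± 0.13 (adjusted p = 0.00271). Kcnj5 fell by 0.74 (adjusted p = 0.00619), and against sDB3 the 2 subunits differed by -1.05 and -0.55. Kcnj3 is on the atrial marker list, whose other members Sln, Myl7 and Myl4 had higher mean signal in AB than in sAB without passing. Abcc9, the regulatory subunit of ATP-sensitive potassium channels, fell by 0.37 (adjusted p = 0.00807), with -0.31 against sDB3. Kcnip2, a subunit of the transient outward channel, differed by 0.12 (adjusted p = 0.46). Kcnd2, a pore subunit of that channel, fell by 0.57 (adjusted p = 0.0409) and by 0.71 against sDB3 (adjusted p = 0.0157). Its call against sAB ended without any one of AB replicates 1 and 3 and sAB replicates 2 and 3, at an adjusted p of up to 0.147.

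Of 13 sodium, pacemaker, chloride and water channel genes, 5 were higher and 1 was lower, with 3 higher without sAB replicate 1 and 3 higher and 2 lower against sDB3. Aqp8, a water channel, rose by 1.60 (adjusted p = 0.00351) and by 1.98 against sDB3. Fxyd6, a modulator of the sodium pump, rose by 1.10 (adjusted p = 0.0012) and by 1.30. Aqp4, the water channel best known from astrocytes, fell by 1.86 ± 0.16 (adjusted p = 7.83e-05) from 4.09, 4.52 and 4.22 in sAB to 2.72, 2.23 and 2.30 in AB, all below 4. The sDB3 arrays also read below 4, at 3.11, 3.26 and 2.75, and AB differed from them by -0.62 (adjusted p = 0.0222). At the intercalated disc, which couples cardiomyocytes, 2 of 19 genes were higher and 2 lower, and 3 and 5 against sDB3. Dsg2, a desmosomal cadherin, read 11.16, 10.71 and 11.14 in AB and 11.79, 11.75 and 11.64 in sAB, and fell by 0.72 ± 0.12 (adjusted p = 0.00245), with -0.78 against sDB3. Jup, which encodes plakoglobin of the same junction, rose by 1.29 ± 0.12 (adjusted p = 9.97e-05) against sAB but differed by 0.09 from sDB3. Gja1, the main ventricular connexin, differed by -0.24 (adjusted p = 0.19).

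The extracellular matrix rose across several classes, with the clearest values among basement membrane collagens and matricellular proteins. Basement membrane collagens form the network around each cardiomyocyte and vessel. Of 7 tested, 5 were higher and none was lower, with a median of 0.82, and the count was 5 in each fit that left out 1 array. Against sDB3 there were 6. Col15a1 read 9.43, 9.46 and 9.90 in AB and 8.001, 7.93 and 7.76 in sAB, and rose by 1.70 ± 0.15 (adjusted p = 9.54e-05), 3.25-fold. Col4a1 read 13.43, 13.58 and 13.70 in AB and 12.78, 12.84 and 12.72 in sAB, and rose by 0.79 ± 0.10 (adjusted p = 0.000659). Its partner chain Col4a2 rose by 0.82 ± 0.07 (adjusted p = 6.12e-05). Against sDB3 these 3 genes differed by 0.97, 1.07 and 0.77.

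The fibrillar collagens, which form the tension-bearing fibres of scar and interstitium, varied far more between mice. Col1a1 read 10.65, 10.63 and 11.66 in AB and 8.59, 9.01 and 10.04 in sAB. AB replicate 3 and sAB replicate 3 were the high arrays of their groups, and the groups did not overlap. Col1a1 rose by 1.76 ± 0.47 (adjusted p = 0.025), but the adjusted p reached as much as 0.0995 without AB replicate 3, sAB replicate 1 or sAB replicate 2, and it was 0.0958 against sDB3 at 1.19. Col3a1 read 12.97, 13.19 and 13.65 in AB and 12.13, 12.51 and 13.64 in sAB, which overlapped, at a difference of 0.51 (adjusted p = 0.42). Col1a2 differed by 0.84 (adjusted p = 0.098). Among 7 fibrillar collagens Col1a1 was the single call, the median was 0.51, and 3 were higher against sDB3.

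Other collagens gave 5 higher of 8, with a median of 0.80, and Col8a1 was the largest among them. This short-chain collagen of vessel and valve matrix read 10.75, 11.51 and 11.68 in AB and 9.41, 9.64 and 9.30 in sAB, a rise of 1.86 ± 0.19 (adjusted p = 0.000226), 3.63-fold, and 2.06 against sDB3. The count of 5 was 1 without AB replicate 3, 2 without sAB replicate 1 or 2 and 3 without sAB replicate 3, and 4 against sDB3. Genes that process collagen gave 9 higher of 20 with a median of 0.31, 5 without AB replicate 3, and 10 against sDB3. P3h2 and P3h3, prolyl 3-hydroxylases that modify collagen chains, rose by 1.13 and 1.02, and by 1.19 and 0.88 against sDB3. Sparc, a collagen-binding glycoprotein, rose by 0.65 (adjusted p = 0.00622), with 0.79 against sDB3. The cross-linking enzyme Lox did not pass at 0.77 (adjusted p = 0.29).

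Matricellular glycoproteins, which signal to cells rather than bear load, gave 12 higher of 26 and none lower, with a median of 0.41. The count was 8 to 11 with 1 array left out and 15 against sDB3. Cilp, a cartilage and cardiac fibroblast matrix protein, read 10.37, 10.54 and 11.87 in AB and 7.71, 8.51 and 8.13 in sAB, a rise of 2.81 ± 0.35 (adjusted p = 0.000595), 7.01-fold. Thbs4, a thrombospondin of stretched muscle and tendon, read 9.32, 9.50 and 10.85 in AB and 7.31, 7.51 and 7.17 in sAB, a rise of 2.56 ± 0.33 (adjusted p = 0.000659), 5.90-fold. AB replicate 3 was the highest array for both genes, and the lowest AB array still stood well above the sAB range. Ccn2, connective tissue growth factor, read 11.32, 11.93 and 12.19 in AB and 9.53, 9.77 and 9.75 in sAB, a rise of 2.13 ± 0.34 (adjusted p = 0.00214). Postn, periostin of activated fibroblasts, read 11.92, 12.75 and 13.08 in AB and 10.22, 10.74 and 11.06 in sAB, a rise of 1.91 ± 0.34 (adjusted p = 0.00351). None of these genes overlapped between groups, and against sDB3 they differed by 2.83, 2.63, 1.74 and 2.28. Fibronectin, Fn1, and Thbs1 did not pass, at 0.74 (adjusted p = 0.23) and 1.03 (adjusted p = 0.22).

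Elastic-fibre genes gave 5 higher and 2 lower of 15, with 3 higher without sAB replicate 1, 1 lower without any one of AB replicates 2 and 3 and sAB replicates 2 and 3, and 8 higher and 3 lower against sDB3. Ltbp2, a fibrillin-associated protein, read 6.83, 7.21 and 8.14 in AB and 4.41, 5.33 and 5.33 in sAB, and rose by 2.37 ± 0.34 (adjusted p = 0.00118), 5.18-fold, with 2.81 against sDB3. Ltbp4, which tethers latent TGF-beta, read 10.51, 10.42 and 10.54 in AB and 9.35, 9.38 and 9.47 in sAB, and rose by 1.09 ± 0.07 (adjusted p = 1.37e-05), with 0.38 against sDB3. Efemp1, fibulin-3, ran the other way. It read 5.41, 6.15 and 5.56 in AB and 7.36, 7.60 and 8.64 in sAB, and fell by 2.16 ± 0.35 (adjusted p = 0.00228), with -1.35 against sDB3.

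Among proteoglycans 6 of 20 were higher and 1 lower, with a median of 0.34, and 8 higher and none lower against sDB3. The higher count was 4 to 5 with 1 array left out, and the lower call, Gpc4, ended in each of those fits. Cspg4, a pericyte proteoglycan, rose by 1.07 (adjusted p = 0.000595), the small proteoglycan Bgn by 1.04 (adjusted p = 0.00866) and the basement membrane proteoglycan Hspg2 by 0.84 (adjusted p = 0.000276). Against sDB3 they differed by 0.85, 0.95 and 0.19. Matrix proteases and their inhibitors gave 6 higher and 2 lower of 29, with 3 higher without any one of AB replicates 2 and 3 and sAB replicates 1 and 2, and 10 higher against sDB3. Mmp2, a gelatinase made by fibroblasts, rose by 1.05 (adjusted p = 0.00592), and Adamtsl2, a matrix protein that binds latent TGF-beta binding proteins, by 1.61 (adjusted p = 0.0012), with 1.15 and 1.19 against sDB3. Timp1, an inhibitor of matrix metalloproteinases, read 6.11, 7.36 and 7.83 in AB and 4.73, 6.13 and 7.02 in sAB. The 2 ranges overlapped, and its difference of 1.14 ± 0.54 did not pass (adjusted p = 0.17).

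Integrins and focal adhesion genes, which connect matrix to cytoskeleton, gave 11 higher and 1 lower of 26, 8 to 11 with 1 array left out, and 12 higher against sDB3. Itga5, the fibronectin receptor chain, read 8.93, 9.10 and 8.96 in AB and 6.95, 6.80 and 7.12 in sAB, and rose by 2.04 ± 0.11 (adjusted p = 3.76e-06), 4.12-fold. The difference from sDB3 was smaller, at 0.71. Itga9 rose by 1.13, Zyx, a sensor of actin tension, by 0.89, Tln1, which links integrins to actin, by 0.76 and Itgb5 by 0.71. Against sDB3 these differed by 0.85, 0.53, 0.46 and 0.97. Summed signal of the fibroblast marker list was 15.5 to 15.6 in AB and 15.4 to 15.7 in sAB, with Pdgfra, Tcf21 and Dcn among its members. It overlapped between those groups, and in sDB3 it was 15.369 to 15.438, below every AB array. Its part in the matrix values was not tested.

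**Figure D2:**
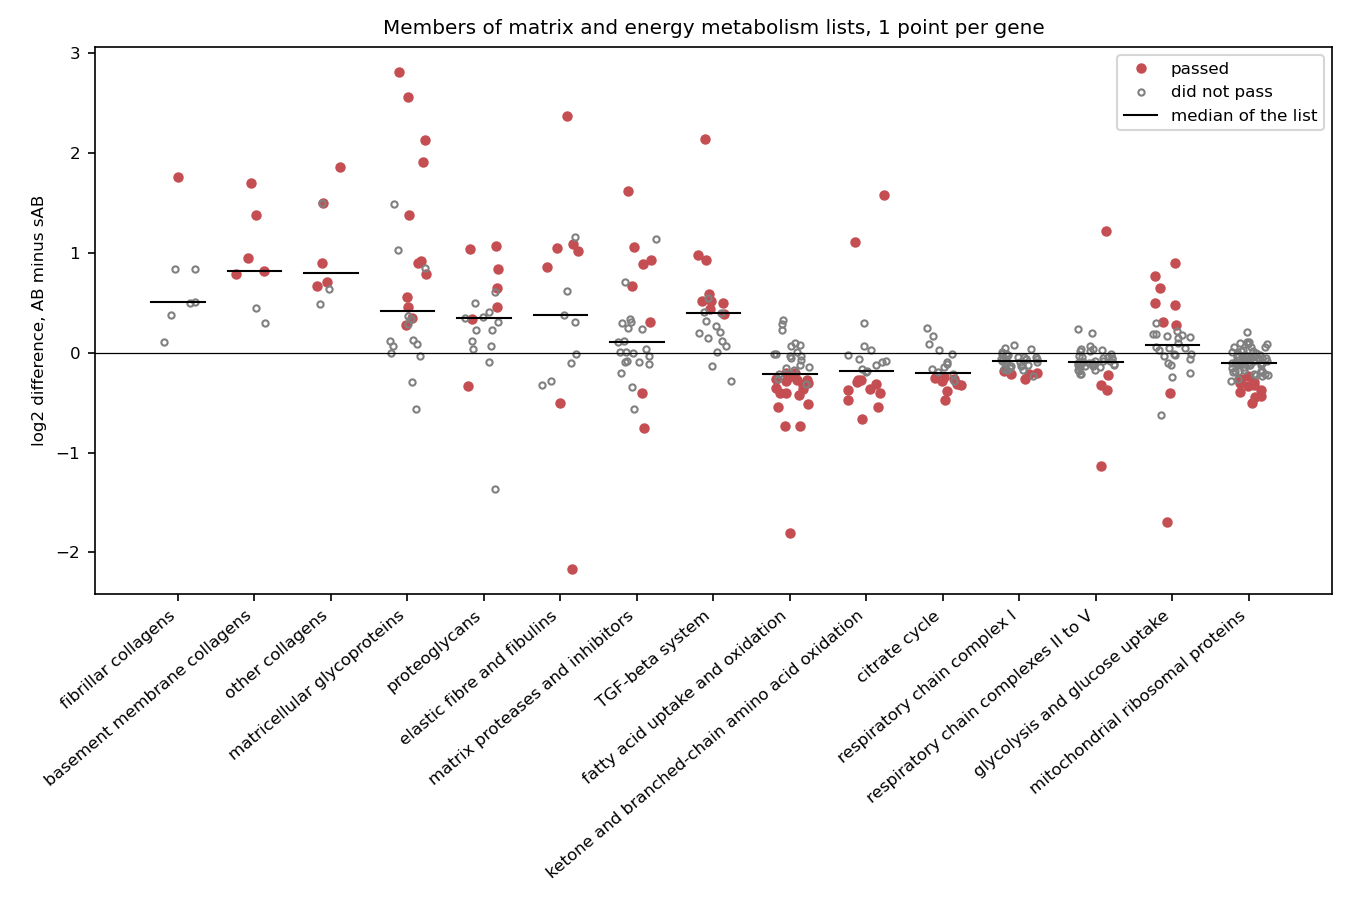
Log2 difference of AB minus sAB (vertical axis) for each tested member of 15 matrix, TGF-beta and energy lists (horizontal axis), filled where the gene passed the test and open where it did not, with a black line at the median of the list. Medians were 0.82 for basement membrane collagens and 0.41 for matricellular glycoproteins, and -0.21 for fatty acid oxidation.

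All 3 TGF-beta ligand genes rose, while the genes of their main receptors did not pass. TGF-beta turns fibroblasts into matrix-producing cells. Tgfb2 read 8.28, 8.95 and 9.08 in AB and 6.31, 6.66 and 6.92 in sAB, a rise of 2.14 ± 0.20 (adjusted p = 0.000112), 4.41-fold, with 2.07 against sDB3. Tgfb1 read 8.29, 8.45 and 8.72 in AB and 7.47, 7.43 and 7.62 in sAB, a rise of 0.98 ± 0.12 (adjusted p = 0.000483), with 0.35 against sDB3 (adjusted p = 0.0589). Tgfb3 rose by 0.93 (adjusted p = 0.00974) and by 0.95 against sDB3. No ligand overlapped between the AB and sAB arrays. The receptors Tgfbr1 and Tgfbr2 differed by 0.32 (adjusted p = 0.062) and 0.27 (adjusted p = 0.27), and the mediator Smad3 by 0.00. Eng, the endothelial co-receptor endoglin, rose by 0.49 (adjusted p = 0.00594), with 0.10 against sDB3. In the whole system 9 of 22 genes were higher and none lower, with a median of 0.39, 5 without AB replicate 2, 4 without AB replicate 3 or sAB replicate 1, and 8 higher with 1 lower against sDB3.

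Bone morphogenetic protein and activin genes gave 1 higher of 19, and 4 against sDB3. The call against sAB was Fstl3, a secreted activin inhibitor, which rose by 0.96 (adjusted p = 0.000918) and by 1.04 against sDB3. In the Wnt system 3 of 21 were higher, with a median of 0.31, and 5 against sDB3. Frzb, a secreted Wnt antagonist, read 8.12, 8.50 and 9.40 in AB and 7.13, 7.11 and 6.93 in sAB, a rise of 1.62 (adjusted p = 0.00442), with 1.73 against sDB3. Lrp5, a Wnt co-receptor, rose by 1.98 ± 0.18 (adjusted p = 0.000101) against sAB and differed by 0.04 from sDB3.

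Of 37 growth factors and cytokines 6 were higher, 16.2%, and 4 lower, 10.8%, against either sham. These shares were close to the 12% and 7.69% of all genes against sAB. Against sDB3 they stand beside 17.3% and 4.69%. The median was -0.14 against sAB. Hbegf, an epidermal growth factor receptor ligand that drives cardiomyocyte growth, read 9.08, 9.33 and 9.13 in AB and 8.40, 8.53 and 8.29 in sAB, a rise of 0.77 ± 0.12 (adjusted p = 0.00161), with 1.12 against sDB3. Cx3cl1, the chemokine fractalkine, rose by 0.94 (adjusted p = 0.0018), and its receptor Cx3cr1, found on monocytes and macrophages, by 0.91 (adjusted p = 0.00325), with 0.996 and 1.02 against sDB3. Angpt1, a vessel-stabilising ligand of Tie2, read 7.40, 6.68 and 7.13 in AB and 8.43, 8.37 and 8.73 in sAB, and fell by 1.44 ± 0.24 (adjusted p = 0.00242), with -1.53 against sDB3. Fgf16, a fibroblast growth factor of cardiomyocytes, fell by 1.11 (adjusted p = 0.00187), with -0.93. Vegfb, an endothelial growth factor of working muscle, rose by 0.50 (adjusted p = 0.00121) against sAB and fell by 0.28 (adjusted p = 0.0202) against sDB3. Igf1, Edn1 and Vegfa did not pass, at 0.38 (adjusted p = 0.41), 0.19 (adjusted p = 0.3) and -0.11 (adjusted p = 0.62).

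Growth-factor receptors and IGF-binding proteins gave 8 higher and 3 lower of 29, with 4 higher without AB replicate 3 and 5 without any other single AB or sAB array except sAB replicate 3, and 11 higher and 2 lower against sDB3. Tnfrsf12a, the receptor of the cytokine TWEAK, read 10.72, 11.07 and 10.94 in AB and 9.90, 9.85 and 9.80 in sAB, a rise of 1.06 ± 0.10 (adjusted p = 9.97e-05), with 1.55 against sDB3. Lifr, the receptor of leukaemia inhibitory factor, fell by 0.61 (adjusted p = 0.00267) and Ghr, the growth hormone receptor, by 0.47 (adjusted p = 0.000996), with -0.66 and -0.23 against sDB3.

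In the angiotensin and adrenergic systems, 4 of 18 genes were higher and 2 lower against either sham, and against sAB 1 was lower without AB replicate 2, AB replicate 3 or sAB replicate 3. Ace, angiotensin-converting enzyme, read 8.15, 8.22 and 8.54 in AB and 6.67, 6.52 and 7.12 in sAB, a rise of 1.53 ± 0.16 (adjusted p = 0.000191), 2.89-fold. Against sDB3 the difference was 0.47 and missed the threshold (adjusted p = 0.0531). Grk5, a kinase that desensitises adrenergic receptors, rose by 0.66 (adjusted p = 0.00323), with 0.87 against sDB3. Gpr22, an orphan receptor of cardiomyocytes, read 8.41, 7.25 and 7.76 in AB and 9.60, 9.16 and 9.39 in sAB, and fell by 1.58 ± 0.25 (adjusted p = 0.00193), 2.98-fold, with -0.91. The angiotensin receptor Agtr1a differed by -0.15 (adjusted p = 0.53).

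Second-messenger and RGS genes gave 6 higher and 3 lower of 41, 3 higher without AB replicate 2 or AB replicate 3, and 10 higher and 3 lower against sDB3. Cnksr1, a scaffold of the Ras pathway, read 8.42, 8.80 and 8.40 in AB and 5.88, 6.24 and 5.79 in sAB, a rise of 2.57 ± 0.19 (adjusted p = 3.15e-05), 5.94-fold, with 1.96 against sDB3. Spry1, an inhibitor of receptor tyrosine kinase signalling, rose by 1.19 (adjusted p = 0.00071). Of the cyclic-nucleotide phosphodiesterases, Pde8a rose by 0.82 (adjusted p = 0.000403) and Pde4d fell by 0.43 (adjusted p = 0.00926). Against sDB3 these 3 genes differed by 0.84, 0.87 and -0.68.

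Transcription factors changed at a minority of members. Immediate early factors gave 7 higher of 23 and none lower, with a median of 0.33, but 2 without AB replicate 2 and 3 without AB replicate 3 or sAB replicate 1, and 4 against sDB3. Myc, a growth regulator, read 5.63, 6.32 and 6.08 in AB and 4.90, 4.66 and 4.84 in sAB, a rise of 1.21 ± 0.15 (adjusted p = 0.00054), with 1.33 against sDB3. Fos and Egr1 did not pass, at 0.42 (adjusted p = 0.79) and 0.62 (adjusted p = 0.58). Cardiac and mesenchymal factors gave 8 higher and 1 lower of 44, 5 without AB replicate 2 and 4 without AB replicate 3, and 14 higher and 2 lower against sDB3. Meox1, a homeobox factor of activated fibroblasts, read 8.11, 8.79 and 9.27 in AB and 6.56, 7.07 and 6.98 in sAB, a rise of 1.86 ± 0.30 (adjusted p = 0.00227), 3.62-fold, with 2.23 against sDB3. Gata4, a factor of cardiomyocyte growth, read 9.56, 9.56 and 9.59 in AB and 9.18, 9.16 and 9.13 in sAB, a small and even rise of 0.42 (adjusted p = 0.00407), with 0.25 against sDB3.

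Nuclear receptors and coactivators gave 3 higher and 1 lower of 32, no lower without AB replicate 3 or sAB replicate 2, 2 lower after quantile normalization or centring, and 2 higher and 4 lower against sDB3. Nr1d1, the clock repressor REV-ERB alpha, read 8.33, 8.54 and 9.22 in AB and 6.88, 6.82 and 7.19 in sAB, a rise of 1.74 ± 0.22 (adjusted p = 0.000659), but it differed by -0.43 from sDB3. Ppard, a fatty acid receptor, rose by 1.15 (adjusted p = 6.93e-05) and differed by 0.24 from sDB3. Ppara, Ppargc1a and Esrra, which activate genes of fatty acid oxidation and mitochondria, did not pass, at -0.27 (adjusted p = 0.46), -0.52 (adjusted p = 0.2) and 0.07 (adjusted p = 0.57). Ppargc1a fell by 1.23 (adjusted p = 0.011) against sDB3. Of 18 circadian clock genes 1 was higher and none lower against sAB, where Dbp differed by 0.31 (adjusted p = 0.73) and Per1 by -0.70 (adjusted p = 0.19). Against sDB3 4 were higher and 5 lower, with Dbp at -2.04 and Per1 at -2.08, and the hour at which each mouse was killed was not among the labels. Dio2, which activates thyroid hormone within cells, read 5.73, 6.52 and 7.38 in AB and 4.04, 4.40 and 4.31 in sAB, a rise of 2.29 ± 0.42 (adjusted p = 0.00418), 4.90-fold, with 3.38 against sDB3.

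Many genes of fatty acid oxidation fell, while their regulators Ppara, Ppargc1a and Esrra did not pass, as given above. The adult heart draws most of its energy from fatty acids, which enter mitochondria as carnitine esters and are shortened by beta-oxidation. Of 39 tested genes of uptake and oxidation 19 were lower and none was higher, with a median of -0.21, and 20 were lower and 1 higher against sDB3. With AB replicate 2 left out the lower count was 9, with AB replicate 3 left out it was 10, and it was 12 without sAB replicate 1 or sAB replicate 3. Acot1, a thioesterase that frees fatty acids from coenzyme A, read 6.63, 5.79 and 6.22 in AB and 7.80, 7.99 and 8.27 in sAB, and fell by 1.81 ± 0.26 (adjusted p = 0.00121), 3.50-fold. Slc25a20, the carnitine-acylcarnitine carrier, read 11.37, 11.28 and 11.26 in AB and 11.90, 12.27 and 11.96 in sAB, and fell by 0.74 ± 0.10 (adjusted p = 0.000701). Acaa2, the thiolase of the last step, read 12.80, 12.39 and 12.50 in AB and 13.24, 13.29 and 13.35 in sAB, and fell by 0.73 ± 0.11 (adjusted p = 0.00153). No AB array of these genes reached the lowest sAB array, and against sDB3 they differed by -1.89, -0.48 and -0.56.

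Ech1, Decr1 and Eci1, which prepare unsaturated fatty acids for oxidation, fell by 0.54, 0.42 and 0.41, and by 0.50, 0.39 and 0.39 against sDB3. Hadh, a dehydrogenase of the cycle, fell by 0.28 (adjusted p = 0.00709) and differed by -0.07 from sDB3. The uptake genes Cd36, Fabp3 and Lpl did not pass, at -0.15 (adjusted p = 0.14), 0.00 and -0.14 (adjusted p = 0.095). Plin5, which coats lipid droplets at mitochondria, fell by 0.63 (adjusted p = 0.000736), with -0.19 against sDB3 (adjusted p = 0.118).

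Genes of glucose uptake and glycolysis moved in both directions, with 7 higher and 2 lower of 32, a median of 0.08 and 4 higher with 5 lower against sDB3. The lower count was 1 without any 1 array other than AB replicate 1, 4 after quantile normalization and 5 after centring. Pfkp, the platelet-type phosphofructokinase, read 10.14, 10.41 and 10.33 in AB and 9.23, 9.47 and 9.49 in sAB, a rise of 0.89 ± 0.13 (adjusted p = 0.00115), with 1.11 against sDB3. Hk1, the hexokinase of fetal heart, rose by 0.64 (adjusted p = 0.00194), with 0.27. Pfkl rose by 0.77 (adjusted p = 0.000659) but differed by -0.0067 from sDB3. Fbp2, the muscle fructose bisphosphatase that runs against glycolysis, read 7.97, 7.40 and 7.57 in AB and 9.23, 9.27 and 9.52 in sAB, and fell by 1.69 ± 0.19 (adjusted p = 0.000368), 3.23-fold, with -1.04. The insulin-regulated transporter Slc2a4 differed by -0.02, and Pdk4, which blocks pyruvate oxidation, by -0.07 (adjusted p = 0.84). Pdk2, its relative, rose by 0.47 (adjusted p = 0.00169) against sAB and fell by 0.25 (adjusted p = 0.0313) against sDB3.

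Ketone and branched-chain amino acid oxidation gave 2 higher and 10 lower of 23, with a median of -0.18, and 1 higher and 9 lower against sDB3. The lower count was 5 without AB replicate 2, AB replicate 3 or sAB replicate 1 and 6 without sAB replicate 3. Bdh1, which interconverts the ketone bodies, read 12.40, 12.70 and 12.69 in AB and 11.63, 11.54 and 11.29 in sAB, a rise of 1.11 ± 0.14 (adjusted p = 0.000573), with 0.68 against sDB3. Bcat2, the other higher gene, rose by 1.58 (adjusted p = 0.000316) but differed by -0.45 from sDB3. Acadsb, a branched-chain acyl-CoA dehydrogenase, fell by 0.66 and Mmut, methylmalonyl-CoA mutase, by 0.55, with -0.57 and -0.25 against sDB3. Mccc1 and Mccc2, subunits of the leucine-degrading carboxylase, fell by 0.40 and 0.37, and Bckdhb, of the branched-chain ketoacid dehydrogenase, by 0.31. Against sDB3 they fell by 0.28, 0.39 and 0.30.

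Counts for the citrate cycle and the respiratory chain depended on single arrays, and that of complexes II to V lay near the 7.69% of all genes. Citrate cycle genes gave 8 lower of 20 with a median of -0.20, none without AB replicate 2 or sAB replicate 1, 1 without AB replicate 3, 3 without sAB replicate 3, 5 without sAB replicate 2 and 3 against sDB3. Complex I gave 5 lower of 36, 13.9%, at a median of -0.09, with 0 to 2 without any single AB or sAB array, 10 after centring and 4 against sDB3. The other complexes gave 4 lower, 9.52%, and 1 higher of 42 at a median of -0.10, with 0 to 2 without any single AB or sAB array other than sAB replicate 1, 11 after centring and 10 lower against sDB3. Mitochondrial ribosomal proteins gave 12 lower of 73 and none higher, 8 to 11 with 1 array left out, 22 after centring, and 5 lower with 1 higher against sDB3. The median of that list was -0.10 against sAB and -0.0035 against sDB3. Mrpl14 fell by 0.51 and Mrpl42 by 0.29, with -0.41 and -0.23 against sDB3. Mrpl50, Mrps22, Mrps9 and Mrpl48 fell by 0.44, 0.43, 0.40 and 0.37, but differed by -0.15, -0.06, -0.01 and -0.08 from sDB3. Slc25a23, a calcium-dependent adenine nucleotide carrier, went the other way at 7.65, 7.60 and 7.63 in AB and 6.29, 6.38 and 6.49 in sAB, a rise of 1.24 ± 0.07 (adjusted p = 3.76e-06), with 0.56 against sDB3. Slc6a8, the creatine transporter, rose by 0.46 (adjusted p = 0.00511), and Vdac1, the main pore of the outer membrane, fell by 0.39 (adjusted p = 0.00214). They differed by 0.35 and -0.21 from sDB3.

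Translation factors and tRNA synthetases gave 13 higher of 38 and none lower, with a median of 0.17, 9 to 12 with 1 array left out and 10 against sDB3. The largest rise of the list was that of Eif4ebp2, at 2.06, and Eef1a2 rose by 0.53. Against sDB3 these 2 genes differed by 0.03 and 0.02. The synthetases Vars, Eprs, Aars and Lars, which load amino acids onto tRNA, rose by 0.72, 0.50, 0.45 and 0.29, and by 0.41, 0.34, 0.47 and 0.44 against sDB3. Asns, asparagine synthetase, read 5.76, 5.89 and 6.35 in AB and 4.24, 4.85 and 4.82 in sAB, a rise of 1.36 ± 0.18 (adjusted p = 0.00071), 2.57-fold, with 1.34 against sDB3. Its list of amino acid, serine and one-carbon metabolism gave 6 higher and 2 lower of 29, 4 to 7 higher with 1 array left out, and 7 higher and 2 lower against sDB3. Mthfd2, a mitochondrial folate enzyme of growing cells, rose by 1.19 (adjusted p = 0.00578), with 1.72. Aldh1l2, which oxidises formyl-folate in mitochondria, fell by 1.32 (adjusted p = 0.000777), with -0.79. Cytosolic ribosomal proteins gave 3 higher and 2 lower of 38, and none and 3 against sDB3, and their higher count was 1 after centring and 1 without sAB replicate 1 or any single AB array. The lower count was 4 after centring, 1 without sAB replicate 2 and 0 without AB replicate 2 or AB replicate 3.

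Folding genes of the endoplasmic reticulum gave 5 higher and 8 lower of 33, with 5 lower without AB replicate 1 or AB replicate 3, 3 higher without AB replicate 2, AB replicate 3 or sAB replicate 1, and 4 higher and 5 lower against sDB3. Canx, calnexin, read 11.72, 11.57 and 11.55 in AB and 12.19, 12.18 and 12.23 in sAB, and fell by 0.59 ± 0.06 (adjusted p = 0.000289), with -0.54 against sDB3. Its luminal relative Calr rose by 0.48 (adjusted p = 0.00103) against sAB and fell by 0.30 (adjusted p = 0.0115) against sDB3. Hspa5, the main chaperone of that compartment, differed by -0.35 (adjusted p = 0.074). Heat shock proteins gave 9 higher of 25 and none lower, 6 to 9 with 1 array left out and 8 against sDB3. Hspa1l read 7.13, 7.88 and 7.69 in AB and 6.40, 6.44 and 6.39 in sAB, a rise of 1.15 ± 0.18 (adjusted p = 0.00179), with 1.43 against sDB3. The small heat shock proteins Hspb1 and Hspb6, which protect the cytoskeleton, rose by 0.45 and 0.44, and by 0.36 and 0.23 against sDB3. Trim63 and Fbxo32, the ubiquitin ligases of muscle atrophy, differed by 0.01 and 0.02. Uchl1, a ubiquitin hydrolase, rose by 1.18 (adjusted p = 0.00664), and Asb15, a substrate adaptor of muscle, fell by 0.88 (adjusted p = 0.000693), with 1.10 and -0.76 against sDB3.

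Antioxidant and NADPH oxidase genes gave 6 higher and 5 lower of 40, 1 higher without AB replicate 2, AB replicate 3 or sAB replicate 2 and 2 without sAB replicate 1, 3 lower without AB replicate 2 or AB replicate 3, and 7 higher and 4 lower against sDB3. The largest passing rises were Gpx3, Mt2, Sod3 and Txnip, at 1.18, 0.90, 0.85 and 0.71. Against sDB3 they differed by 0.26, -0.15, 0.41 and 0.16, and none passed. Gstt1 had the largest fall, at -0.68, and differed by -0.29 from sDB3 (adjusted p = 0.177). The glutathione transferases Gstk1 and Mgst1 fell by 0.52 and 0.54, with -0.53 and -0.52 against sDB3. Nox4, a hydrogen peroxide-producing oxidase, differed by 1.23 (adjusted p = 0.09) and rose by 1.91 (adjusted p = 0.017) against sDB3. In NAD and iron metabolism 2 genes of 30 were higher and 5 lower, with a median of -0.17, 9 lower after centring, 8 lower without AB replicate 1, and 1 higher and 6 lower against sDB3. Nmrk2, the muscle nicotinamide riboside kinase, read 8.51, 10.11 and 9.76 in AB and 7.32, 7.72 and 7.49 in sAB, a rise of 1.95 ± 0.36 (adjusted p = 0.00444), 3.86-fold, with 1.86 against sDB3. AB replicate 1 was the low array of its group and still stood above all sAB arrays. Nadk2, the mitochondrial NAD kinase, fell by 0.75 (adjusted p = 0.000963), with -0.58.

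Macrophage markers gave 1 higher of 21, Cx3cr1, and none lower, with a median of -0.29, and 1 higher against sDB3. Without sAB replicate 1 there were 5 lower, and after quantile normalization or centring 1, and their summed signal was 13.5 to 13.7 in AB and 13.4 to 14.5 in sAB. The 24 complement and innate genes gave 2 higher and 4 lower, and 2 higher and 1 lower against sDB3. Higher counts of 1 came without AB replicate 2 or sAB replicate 1, and 4 without sAB replicate 3. Lower counts of 1 came without AB replicate 1, AB replicate 3, sAB replicate 2 or sAB replicate 3, 2 without AB replicate 2 and 8 without sAB replicate 1. The neutrophil gene S100a9 read 6.41, 5.85 and 8.77 in sAB and 5.63, 5.71 and 5.51 in AB, and sAB replicate 3 alone was high (adjusted p = 0.13). Masp1, a protease of the lectin complement pathway, rose by 0.94 (adjusted p = 0.00071), with 1.35 against sDB3. Interferon and antigen presentation genes gave none higher and 2 lower of 34, with 1 or none lower when any single array but sAB replicate 2 was left out, 2 higher without AB replicate 1 and 3 without sAB replicate 3, and 6 higher and 2 lower against sDB3.

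Cell cycle genes gave 2 higher and 1 lower of 24, with 1 higher without AB replicate 3 and a median of -0.03, and 8 higher and 1 lower against sDB3 with a median of 0.38, while 23 of the 47 on the array never passed the signal filter. Ccnd2, a cyclin of growing cardiomyocytes, rose by 0.36 (adjusted p = 0.0133), with 0.38 against sDB3, and the mitotic gene Mki67 differed by 0.15 (adjusted p = 0.88) from sAB but rose by 2.27 (adjusted p = 0.017) against sDB3. Cell death and survival genes gave 8 higher of 31 and none lower, 4 without AB replicate 2 or AB replicate 3, and 10 against sDB3. Phlda3 and Zmat3, both p53 targets, rose by 1.18 (adjusted p = 0.00228) and 0.69 (adjusted p = 0.00476), with 0.76 and 0.79 against sDB3.

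Markers of vessels were higher in AB at several genes. Endothelial markers gave 6 higher of 23 with a median of 0.21, 4 to 5 with 1 array left out and 13 against sDB3, and their summed signal was 15.379 to 15.446 in AB and 15.251 to 15.315 in sAB. Tie1, an endothelial receptor, rose by 0.54 (adjusted p = 0.00429), with 0.53 against sDB3, but Pecam1, Cdh5 and Kdr did not pass, at 0.18 (adjusted p = 0.2), 0.29 (adjusted p = 0.1) and 0.01. Smooth muscle and pericyte markers gave 7 higher and 1 lower of 17, 5 to 7 with 1 array left out and 7 higher and 1 lower against sDB3, and their summed signal was 15.466 to 15.585 in AB and 15.302 to 15.339 in sAB. Ndufa4l2, a pericyte gene, rose by 0.97 (adjusted p = 0.000504) and Mcam by 0.56 (adjusted p = 0.00134), with 0.48 and 0.42 against sDB3, while the contractile genes Acta2 and Myh11 differed by 0.14 (adjusted p = 0.78) and 0.03. The 1 lower member was Abcc9, at -0.37, which is described above with the potassium channel subunits and is also a pericyte marker of this list. Both sums stood higher in every AB array than in every sAB array beside the matrix lists, and their part in those results was not tested. In sDB3 the endothelial sum was 15.201 to 15.228, below every AB array. The smooth muscle and pericyte sum was 15.34 to 15.493 in sDB3, which overlapped AB. The smooth muscle and pericyte list holds Des, described above beside the Z-disc genes. Des read 13.59, 13.76 and 13.73 in AB and 12.92, 12.91 and 12.96 in sAB. The sum of that list therefore does not stand for vessel cells alone, and the part of Des in it was not tested. Of 16 fibroblast markers 1 was higher, Pdgfra at 0.43, whose adjusted p of 0.0448 reached as much as 0.134 and missed the threshold without any single array other than sAB replicate 3. Against sDB3 4 were higher and 1 lower, with a median of 0.48 beside one of -0.0038 against sAB. The 1 lower against sAB was Scara5, a ferritin receptor of resting fibroblasts, which fell by 1.49 (adjusted p = 0.00477), with -0.89 against sDB3. Lymphocyte and neutrophil, red cell, adipocyte, nerve and epicardial markers were mostly near the floor, with 12 of 16, 2 of 4, 5 of 5, 7 of 10 and 8 of 10 at or below 4 in the AB mean, and gave a single call, lower, among 16 tested.

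**Figure D3:**
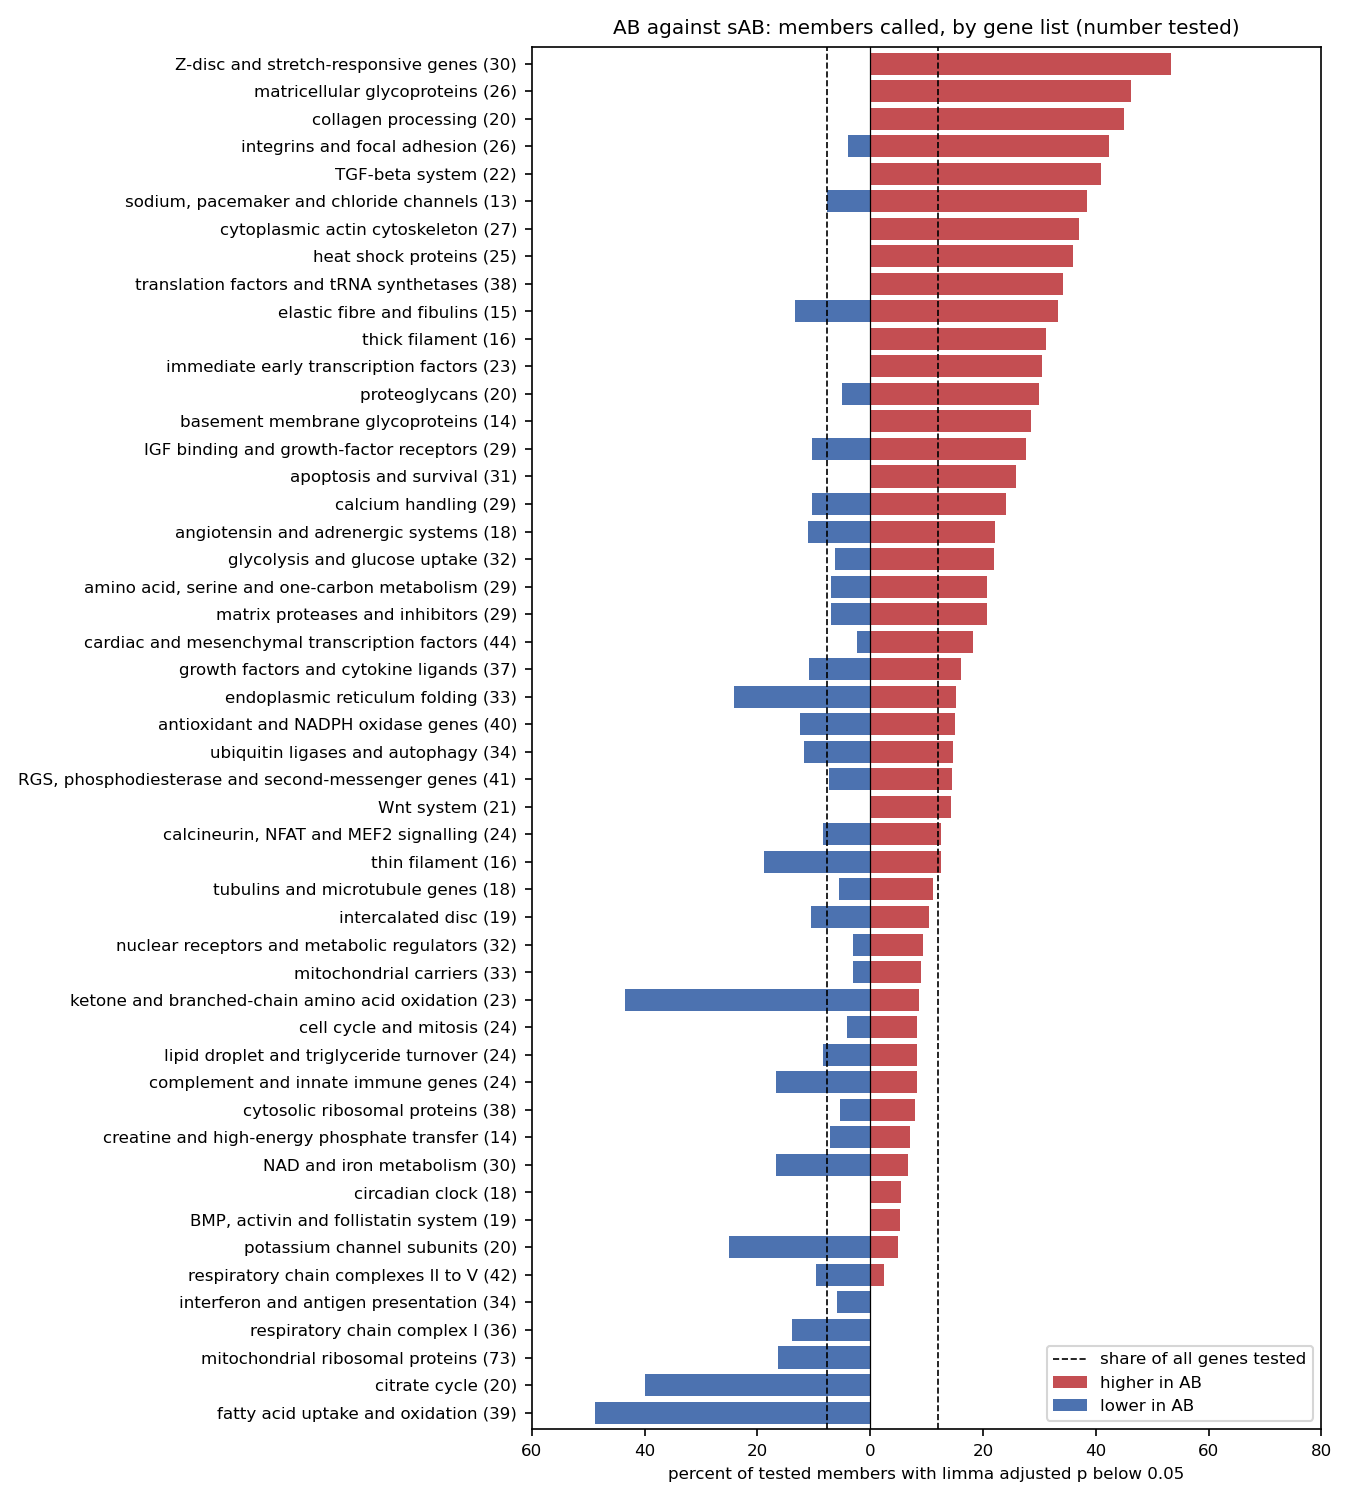
Percent of tested members with an adjusted p below 0.05 for AB against sAB (horizontal axis), by gene list with the number tested, higher in AB to the right in red and lower to the left in blue. The dashed lines mark the shares over all genes tested, 12% and 7.69%, and the Z-disc list, 16 of 30, and the fatty acid list, 19 of 39, lie far beyond them on opposite sides.

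The largest differences ranged from those that sDB3 shared to those near 0 against it. Between these lay Itga5, at 2.04 against sAB and 0.71 against sDB3, and Efemp1, at -2.16 and -1.35. Cilp, Cnksr1, Thbs4, Ltbp2, Nppa, Dio2, Tgfb2 and Ccn2 were at least 4-fold higher in AB than in sAB and differed by 1.74 to 3.38 from sDB3. Ano10, an anoctamin of the endoplasmic reticulum, read 8.73, 8.18 and 8.18 in AB and 9.86, 9.71 and 10.22 in sAB, and fell by 1.57 (adjusted p = 0.000681), with -1.51 against sDB3. Ces1d, a lipid-hydrolysing carboxylesterase, fell by 1.54 (adjusted p = 0.000235), with -0.90. Lman1l rose by 2.59, with 2.60 against sDB3, but its sAB mean of 2.26 lay below 4. Retnla had the largest fall without overlap, at 2.35 (adjusted p = 0.0428). Its call ended in each fit that left out 1 array, and it differed by -1.24 from sDB3 (adjusted p = 0.236).

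Other large differences against sAB were near 0 against sDB3. Eif4ebp2, a repressor of cap-dependent translation, read 8.34, 8.37 and 8.33 in AB and 6.06, 6.30 and 6.50 in sAB, a rise of 2.06 ± 0.10 (adjusted p = 1.57e-06). The sDB3 arrays read 8.33, 8.32 and 8.30, and the difference from them was 0.03. Lbh, a transcription cofactor of limb bud and heart, rose by 1.88 ± 0.10 (adjusted p = 3.76e-06) and differed by 0.11 from sDB3. The zinc-finger factor Maz rose by 1.96 with 0.23, and Ret, a neurotrophic receptor kinase, fell by 2.03 ± 0.32 (adjusted p = 0.00214) with -0.31. In 1360 genes, 13% of those tested, all 3 sAB arrays lay outside the range of the other 9 arrays, and in 1047, 10%, all 3 AB arrays did. Of the genes higher in AB, 39.8% had every sAB array below the other 9 and 35.9% had every AB array above them. Of the lower genes the shares were 45.3% and 28.7%. Of 267 genes with a call against sAB that were named by size of change, by list or by symbol, 167 were called in the same direction against sDB3.

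**Figure D4:**
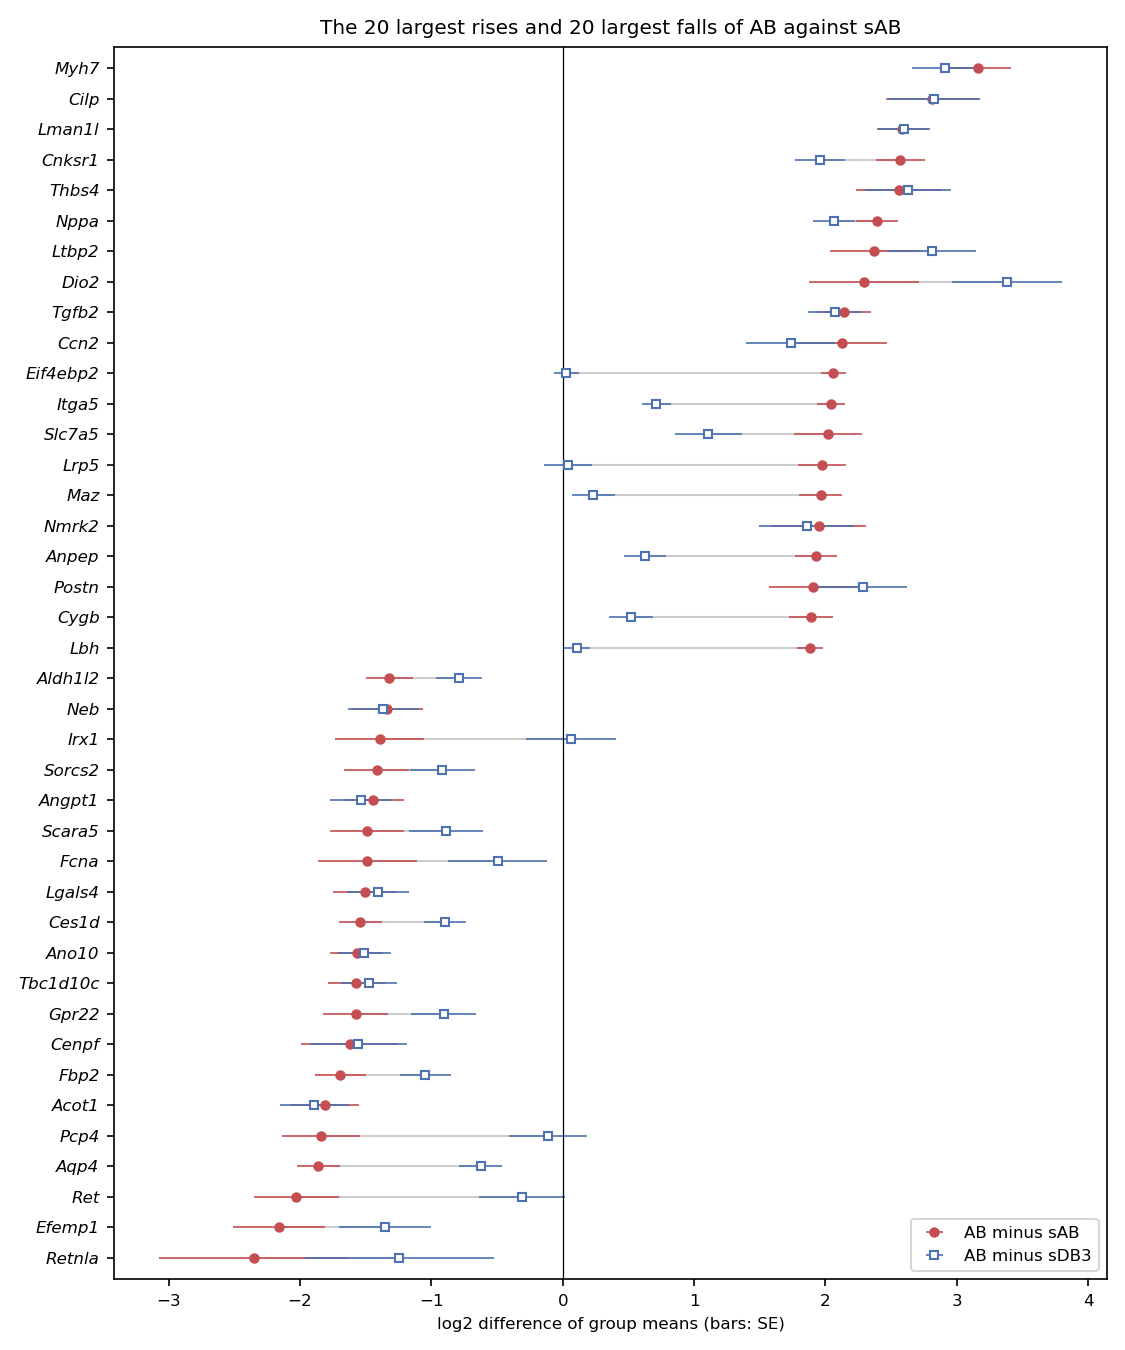
Log2 difference (horizontal axis) of the 20 largest rises and 20 largest falls against sAB whose arrays did not overlap, as AB minus sAB (red circles) and AB minus sDB3 (open blue squares), with SE bars. Myh7 lies at 3.16 and 2.91, while Eif4ebp2 lies at 2.06 and 0.03.

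**Figure D5:**
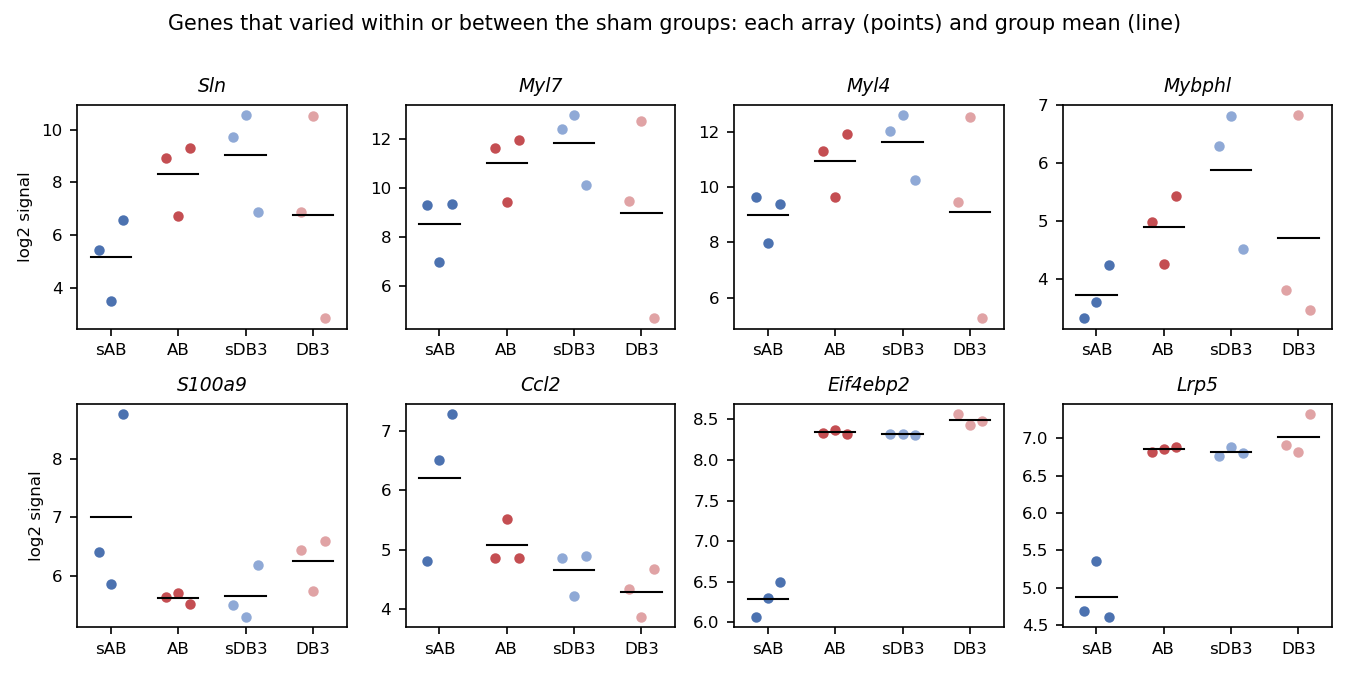
Log2 signal (vertical axis) of 8 genes on each array (points) in the 4 groups, with the group mean as a line. The atrial genes Sln, Myl7, Myl4 and Mybphl varied between mice of one group, S100a9 and Ccl2 were highest on sAB replicate 3, and Eif4ebp2 and Lrp5 were low on the 3 sAB arrays alone.

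Probe sets of a gene could disagree. With each of the 17817 probe sets above the signal limit tested singly, 2179 were higher and 1212 lower, and 48 of 4608 genes with several had passing probe sets in opposite directions. Fmo5, a flavin monooxygenase, gave 0.65 and -0.63, and Tbc1d4, a regulator of glucose transporter traffic, gave 0.63 and -0.71. Sptbn1, a spectrin, gave 0.66 and -0.47, and Coro7, Rabep2 and Reep5 gave 0.83 and -0.45, 0.52 and -0.60, and 0.94 and -0.44.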

How the data were processed

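RNA of 12 left ventricles was labelled with biotin from 3 µg total RNA and hybridised to Affymetrix arrays, per the labels' protocols. The deposited table holds log2 signal per probe set, made by the authors with GCRMA per the submitters' processing notes, whose version is not given in the sources used here. GCRMA corrects background, normalizes and summarises the probes of a set, which compresses low signals towards a floor. Of 45101 probe sets, 64 were controls, 34945 carried 1 gene symbol (34741 of them found in the RefSeq table by gene ID), 932 carried several and 9160 none. Probe sets with 1 symbol and log2 above 4 on at least 3 of 12 arrays were kept (17817), and the probe set with the highest mean over the 12 arrays stood for its gene. 5 genes passed only through the AB arrays and 5 only through the sAB arrays, and they were called higher and lower by that construction.

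The replicates are mice numbered in accession order. The 4 groups were fitted in 1 limma model (version 3.58.1, R 4.3.3; 8 residual and 2.68 prior degrees of freedom), two-sided, with Benjamini-Hochberg adjustment over 10435 genes and a threshold of 0.05. The median standard error was 0.11 on the log2 scale, and 3 arrays per group limit the precision. An exact permutation test of 3 against 3 cannot go below p = 0.1, so none was used. Python 3.11.15 searched promoters of the RefSeq table, build GRCm38.p6.

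Lists were counted, not tested. The members and gene lists were chosen with earlier results of these data known. Genes were named by rule, and not all of them are described in the text. The rules took the 20 largest rises and 20 largest falls without overlap, and up to 5 passing members per list with the largest difference. Members whose level or miss is the subject of a sentence were added. So were 13 genes by name (Nppa, Nppb, Myh7, Myh6, Acta1, Actc1, Atp2a2, Pln, Col1a1, Col3a1, Postn, Ccn2 and Timp1) and 6 genes with opposed probe sets. Alternatives were no filter on dim signal, a filter at 6, averaging the probe sets of a gene, quantile normalization, median centring, the 6 arrays alone, an analysis of variance without moderation as the series' design text describes, trend and robust moderation, sDB3 as the control, and each array left out.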

Additional observations from a re-analysis of the deposited data

Results flagged for a closer look

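Signal outside the genes compared came from probe sets that carry several gene symbols or none. Of 1822 such probe sets above the signal filter, 134 were higher in AB than in sAB, 7.35%, and 103 were lower, 5.65%, in the same limma test. Their genes are unnamed here, and no result rests on them.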

How the results depend on the processing

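No paired analysis was possible because the labels carry no replicate numbers, and those used here follow accession order. Counts against sAB were 766 to 1115 higher and 373 to 630 lower with 1 array left out, and 900 to 1578 higher and 224 to 434 lower against sDB3 with 1 array of AB or sDB3 left out. With sDB3 as the control 489 genes were lower in place of 802. Against sDB3, 918 were higher after quantile normalization, and 809 were higher and 1218 lower after centring. Alternatives of the sDB3 comparison were chosen after seeing the data. No other alternative moved a count of higher or lower genes by over 1.5 times. With sDB3 as the control 17 of the 274 genes named by size of change, by list or by symbol turned sign, at Adamts15 0.15, Bcat2 -0.45, Coro7 0.020, Gpat4 -0.36, Irx1 0.063, Kcnj11 -0.49, Mt2 -0.15, Nr1d1 -0.43, Nr2f2 -0.16, Pfkl -0.0067, Pnpla2 -0.092, Ppp3r1 0.080, Rabep2 0.030, Reep5 -0.18, Rpl27a -0.089, Ryk -0.088 and Sirt3 0.014. Vegfb, Pdk2 and Calr, named for their level, also turned, at -0.28, -0.25 and -0.30. Coro7 was 0.19 with the mean of its probe sets. The cause was not tested. Of the 267 of those 274 genes with a call, 170 kept it in every alternative with sAB as control and 85 lost it without at least 1 array. The 3 arrays per group limit what can be called, and a group that read below 4 only bounds its difference.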
